A study of Mus musculus with 9 samples.

Results

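Antibody blockade of Notch signalling in mouse thyroid was examined for 6 genes of the aryl hydrocarbon receptor pathway: *Ahr*, *Arnt*, *Cyp1a1*, *Cyp1b1*, *Tiparp* and *Nqo1*. They were taken by name, as 6 of the 52636 genes in the deposited table, and all 6 had counts. The list was chosen by measured values of these same samples, among them the antibody comparisons and a difference in *Cyp1a1* between the control pools. The values below are therefore descriptions, and each adjusted p states where a gene stood in a fit over all genes, with no independent weight. The study compared thyroids of male C57BL/6 mice, aged 10 to 12 weeks by the design text and 10 to 14 by the treatment protocol, 7 days after a single intraperitoneal antibody injection. RW mice received 40 mg/kg of an anti-ragweed isotype control antibody. The aJ1aJ2 mice received anti-Jag1 and anti-Jag2 at 20 mg/kg each, which block Notch ligands, and the aN1aN2 mice received anti-Notch1 at 5 mg/kg and anti-Notch2 at 10 mg/kg, which block receptors. Each group had 3 samples, and each sample was a pool of 6 thyroids digested together and made into 1 droplet library, so n counts pools and no value belongs to a single mouse.

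The aryl hydrocarbon receptor, encoded by *Ahr*, is a transcription factor held in the cytoplasm with heat shock protein 90 until a small molecule binds it. Ligands include dioxins, plant compounds and products of tryptophan. It then enters the nucleus, pairs with the protein made by *Arnt*, and binds a short DNA motif, the xenobiotic response element. Classical targets are the cytochrome P450 enzymes *Cyp1a1* and *Cyp1b1*, which oxidise receptor ligands and other compounds. *Tiparp* encodes an ADP-ribosyl transferase that acts back on the receptor as an inhibitor, and *Nqo1* encodes a quinone reductase that is also a classical target of the oxidative stress factor NRF2. Endothelium lining blood vessels is a known site of *Cyp1a1* induction.

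Among the pairs of gene and cell label that could be tested, *Cyp1a1* and *Cyp1b1* differed most between aN1aN2 and RW, in different cells and in opposite directions, so the 250 bases before their RefSeq start sites (build GRCm38.p6) are shown. *Cyp1a1* lies on the plus strand of chromosome 9 (gene chr9:57687928-57703824) and the window is chr9:57697363-57697612. *Cyp1b1* lies on the minus strand of chromosome 17 (gene chr17:79701537-79715061) and the window is chr17:79715062-79715311. Capitals mark GCGTG, the core of the response element, or CACGC, its reverse complement.
Cyp1a1: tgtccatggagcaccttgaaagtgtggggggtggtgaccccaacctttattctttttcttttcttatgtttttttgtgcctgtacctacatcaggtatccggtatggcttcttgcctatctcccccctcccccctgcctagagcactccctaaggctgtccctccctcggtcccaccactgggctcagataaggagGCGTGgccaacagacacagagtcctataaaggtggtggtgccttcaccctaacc
Cyp1b1: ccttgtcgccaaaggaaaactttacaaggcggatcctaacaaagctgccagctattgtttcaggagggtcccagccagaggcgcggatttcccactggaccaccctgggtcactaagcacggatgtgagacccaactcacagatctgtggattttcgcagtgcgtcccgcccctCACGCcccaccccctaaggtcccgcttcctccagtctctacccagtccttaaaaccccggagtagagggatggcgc
Each window held 1 match, 54 to 50 bases before the start in *Cyp1a1* and, on the opposite strand, 76 to 72 bases before it in *Cyp1b1*. The *Arnt* and *Tiparp* windows also held 1 match each and the *Nqo1* window none, while *Ahr* had no entry in the promoter table. On both strands, GCGTG occurred in 28.16% of the 32851 windows of this length. The longer TNGCGTG, which contains GCGTG, occurred in 4.1% and in none of the 5 matched members. These are matches of letters only, and response elements farther from the start lie outside the windows. The other members lie at chr12:35497974-35535038 (*Ahr*, minus strand), chr3:95434388-95497240 (*Arnt*, plus), chr3:65528410-65555518 (*Tiparp*, plus) and chr8:107388225-107403206 (*Nqo1*, minus), all protein-coding in GENCODE on GRCm38.

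The table held 10186 cells and 63121420 unique molecular identifiers (UMIs, each a counted transcript), from 583 to 1805 cells and 3013324 to 11880793 UMIs per pool, with 16 cell labels from the authors. The aN1aN2 pools were shallower, with medians of 2098 to 2237 UMIs per cell against 2823 to 4149 in the other 6 pools. By marker lists, the labels EC1, EC2 and EC4 were endothelial, F was fibroblast and Th1 was thyrocyte, S was highest in Schwann cell markers, SM in mural, M in macrophage, P in parathyroid and T1 in T cell markers, whereas EC3 also carried lymphatic endothelial markers at 4751 UMIs per 1000000 (CPM) and mural markers at 2385, and EC2 mural markers at 2124. Label Th2 held neutrophil markers at 19473 CPM, and EC4 was shallow, with a median of 1045.5 UMIs per cell. The 15 cell barcodes found in more than 1 library were kept as separate cells. By the numbers in the sample titles the aN1aN2 libraries formed a range of their own, so antibody and library series cannot be told apart for them. RW 3 and aJ1aJ2 1, whose pool numbers are given here because their titles have none, shared a range, and RW 1, RW 2, aJ1aJ2 3 and aJ1aJ2 4 another.

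*Ahr* was foremost an endothelial transcript. Of its 3230 UMIs, 82.0% fell in EC1 to EC4, and its level over all pools was 215 CPM in EC1 and 199 CPM in EC4. It was 65.0 CPM in EC2, 55.6 in EC3, 54.8 in S, 26.6 in M, 16.3 in Th1 thyrocytes and 11.8 in F. Averaged over pools, EC4 had 197 ± 94.9 CPM (SD, n = 9) and EC1 had 187 ± 68.6, which did not differ beyond their spread, and neither did EC3 (64.8 ± 25.5, n = 8) and EC2 (56.6 ± 21.4, n = 7). *Arnt*, its partner, was spread over nearly all labels, from 9.67 CPM in P to 53.3 in F and 68.3 in Th2 (12 UMIs), with 1.34 and 0.232 CPM in the erythroid labels Eryth1 and Eryth2.

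**Figure D1:**
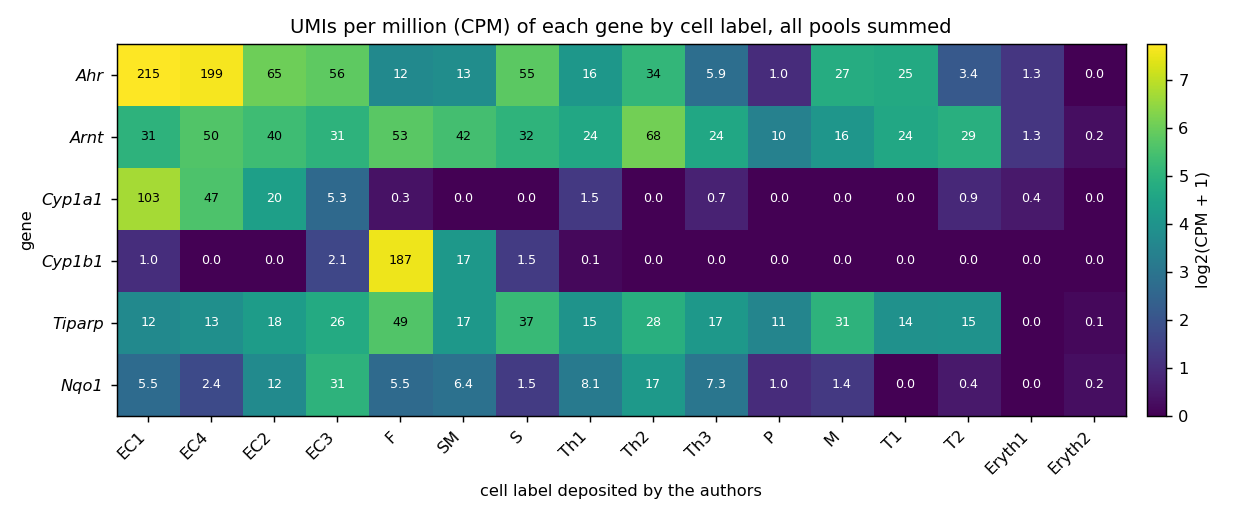
CPM of each gene (rows) in each of the authors' 16 cell labels (columns), all 9 pools summed; colour is log2(CPM + 1) and the printed number is the CPM. *Ahr* is highest in EC1 (215) and EC4 (199), *Cyp1a1* in EC1 (103) and *Cyp1b1* in F (187), while *Arnt* and *Tiparp* are broad.

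The target genes divided by cell type. *Cyp1a1* had 1174 UMIs, 87.6% of them in EC1 and 96.7% in EC1 to EC4. With all pools summed, its level was 103 CPM in EC1, 47.3 in EC4, 19.8 in EC2, 5.28 in EC3 and 1.45 in Th1. Single pools ranged from 0 to 356 CPM in EC1 (n = 9), 0 to 179 in EC4 (n = 9) and 0 to 77.1 in EC2 (n = 7). In each of these labels the SD over pools exceeded the mean, so EC1, EC4 and EC2 did not differ beyond their spread. Pool RW 1 alone held 547 of the 1029 EC1 UMIs, and without it, an alternative added after seeing the data, EC1 had 57.3 CPM, EC4 31.0 and EC3 3.44. A *Cyp1a1* UMI was seen in 14.1% of EC1 cells (median 3994 UMIs per cell), in 1.37% of the much deeper Th1 cells (median 12553), and in 0 of 409 T1 cells (median 4214), which allows up to 0.733% of cells with a UMI (3 counts of the total). Thinned to 2000 UMIs per cell, the shares were 9.47% in EC1, 0.220% in Th1 and 0% in T1. Both latter shares serve as the background for cells of other types. In M, P, S, SM, T1, Th2 and Eryth2 no *Cyp1a1* UMI was counted.

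*Cyp1b1* was its counterpart in the stroma: 618 of 651 UMIs were in F, at 187 CPM (95% counting interval 173 to 203), and 13 in SM at 16.7 CPM. EC1 had 1.00 CPM, and EC2 and EC4 none. *Tiparp* was broad, highest in F at 49.4 CPM and S at 36.5, with M at 30.9, Th2 at 28.5 (5 UMIs) and EC3 at 25.7. Averaged over pools F had 57.9 ± 28.1, S 38.0 ± 15.8 (n = 4), EC3 27.6 ± 11.02 (n = 8) and M 24.6 ± 15.3 CPM (n = 6), so the order below S depended on the weighting and none of these neighbours differed beyond its spread. *Nqo1* had its highest mean in EC3, at 27.1 ± 9.06 CPM over pools (n = 8). EC2 at 11.8 ± 13.1 (n = 7), with a highest pool at 38.9, did not differ from EC3 beyond the spread. Th1 lay lower, at 7.36 ± 2.59, although it held 190 of the 399 *Nqo1* UMIs.

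Across the 16 labels and 12075 genes with at least 200 UMIs, the profiles most like *Ahr* were those of *Sh3bp5*, *Lpcat1* and *Xaf1* (Pearson r of log2(CPM + 1) 0.959, 0.955 and 0.952). The nearest to *Cyp1a1* were *Rtp3* (0.961), *Exoc3l* and *Irx3*, and the nearest to *Cyp1b1* were *Svep1* (0.976), *Itgbl1* and *C1qtnf7*. *Arnt* was nearest to *Zfp655* (0.988), *Tiparp* to *Hsd17b11* (0.968) and *Nqo1* to *Unc13b* (0.931). The points share libraries and differ widely in depth, so these values describe resemblance only.

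Control pools did not share 1 level of *Cyp1a1*. In EC1 the gene stood at 356 CPM in RW 1 (547 UMIs), 83.0 in RW 2 (111) and 47.5 in RW 3 (107). RW 1 was thus 4.29 times RW 2 (95% counting interval 3.49 to 5.31) and 7.49 times RW 3 (6.08 to 9.30). Among the 8155 genes with at least 50 EC1 UMIs in these pools, *Cyp1a1* ranked 1st by its excess in RW 1, and 12 genes (0.147%) were at least 2-fold above both other pools. RW 1 was again the highest in EC4, with 179 CPM in RW 1 (25 UMIs), 24.8 in RW 2 (2) and 39.0 in RW 3 (5). With 32 UMIs it fell short of the 50 required there, and 3 of the 1161 genes that had them (0.258%) were at least 2-fold above both other pools. EC3 had 7, 1 and 0 UMIs. RW 1 was not the highest in EC2 (8, 9 and 1 UMIs, 38.0 CPM in RW 1 and 77.1 in RW 2) or Th1 (2.00, 4.67 and 0.955 CPM). *Ahr* itself was 276, 229 and 178 CPM in EC1 of RW 1, RW 2 and RW 3.

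More cells, and more UMIs per cell, made up the RW 1 level. In RW 1, 75 of 191 EC1 cells (39.3%) had a *Cyp1a1* UMI and 34 had over 5, against 35 of 182 (19.2%) with 5 such cells in RW 2 and 35 of 288 (12.2%) with 5 in RW 3. Thinned to 2000 UMIs per cell, the shares were 29.7%, 9.92% and 6.39%. The highest cell of RW 1 held 37 UMIs, or 6.76% of that pool's total, so no single cell carried it. Median depth in EC1 was 4968, 4679 and 4864.5 UMIs per cell in RW 1, 2 and 3, and the median mitochondrial share was 6.31%, 5.23% and 4.77%, the order of *Cyp1a1*. Summed dissociation-response genes (such as *Fos*, *Jun* and *Hspa1a*) were 2627, 2530 and 2831 CPM, and summed thyrocyte markers 979, 885 and 704 CPM. Their part in the difference was not tested.

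**Figure D2:**
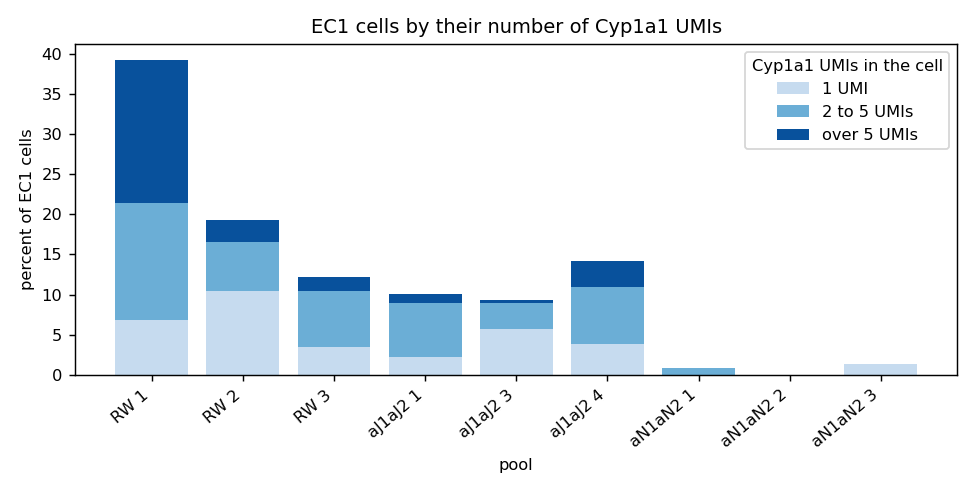
Percent of EC1 cells in each pool (x axis) with 1, 2 to 5 or over 5 *Cyp1a1* UMIs, as stacked bars starting at 0. Depth is not matched between bars. RW 1 reaches 39.3%, RW 2 19.2% and RW 3 12.2%, the last inside the range of the aJ1aJ2 pools, which lie at 9.32% to 14.2%, while the aN1aN2 pools reach at most 1.33%.

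Cells with a *Cyp1a1* UMI also carried more *Ahr*. In RW 1, *Ahr* was 344 CPM in the EC1 cells with a *Cyp1a1* UMI and 224 CPM in those without. The same order held in all 6 RW and aJ1aJ2 pools, with 235 to 414 CPM in cells with a UMI and 139 to 237 in those without. *Nqo1* was higher in the *Cyp1a1* cells of 4 of these 6 pools, on 0 to 10 UMIs each, *Arnt* in 5 and *Tiparp* in 3. The *Cyp1a1* cells were also deeper in every one of these pools, for example a median of 5254 against 4489.5 UMIs in RW 1, and the part of depth was not tested.

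Under anti-Notch1 and anti-Notch2, *Ahr* was lower in the endothelial labels EC1 and EC4, *Cyp1a1* was close to 0 in EC1, and *Cyp1b1* was higher in fibroblasts. Levels of tested pairs from here on are CPM on library sizes adjusted by the trimmed mean of M-values (TMM), levels of untested pairs and of marker or gene lists are unadjusted CPM, and changes are log2 with standard errors from edgeR's quasi-likelihood test, called at an adjusted p (Benjamini-Hochberg over all genes of a label) under 0.05. Of 54 pairs of a member and a label with enough cells, 16 passed the filter on low counts and 6 were called against RW, 3 higher and 3 lower, while DESeq2 called 5. The 16 pairs lay in 5 labels, in which 17.8% (EC1), 5.91% (EC3), 21.1% (EC4), 19.8% (F) and 34.4% (Th1) of all genes were called, and nothing is read from the members' count.

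*Ahr*, the receptor, was measured in EC1 at 283, 236 and 182 CPM in RW 1, 2 and 3, at 165, 257 and 254 in aJ1aJ2 1, 3 and 4, and at 110, 105 and 111 in aN1aN2 1, 2 and 3. All aN1aN2 pools lay below all others, and close together. The change against RW was -1.10 (SE 0.20, edgeR adjusted p = 0.000385), and against aJ1aJ2 -1.08 (0.20, adjusted p = 0.000691). A UMI of *Ahr* was seen, after thinning to 2000 UMIs, in 28.1% to 41.6% of EC1 cells of RW pools, 24.4% to 36.5% in aJ1aJ2 and 15.3% to 20.0% in aN1aN2. Thinning left out 22, 35 and 77 shallower cells. At unequal depth, the unthinned ranges were 56.6% to 72.8%, 47.2% to 59.5% and 24.0% to 33.3%.

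EC4 gave *Ahr* values of 362, 371 and 264 CPM in RW, 142, 389 and 297 in aJ1aJ2 and 122, 129 and 85.7 in aN1aN2. Again the aN1aN2 pools were the lowest, on 22, 17 and 9 UMIs, with aJ1aJ2 1 (6 UMIs) next. Only 109 of 1046 EC4 cells had 2000 UMIs or more. Thinned to 2000, the shares of these with an *Ahr* UMI overlapped, at 31.1% to 53.3% in RW, 12.6% to 56.3% in aJ1aJ2 and 0% to 36.0% in aN1aN2. The change in *Ahr* level was -1.51 (SE 0.29, edgeR adjusted p = 0.000318) against RW and -1.42 (0.28, adjusted p = 0.000577) against aJ1aJ2. Its difference from the change in EC1 was -0.42 (SE 0.32, adjusted p = 0.748), with no call. Beside it, the median mitochondrial share of EC4 cells was 9.27% to 13.9% in RW pools and 4.80% to 6.18% in aN1aN2 pools. Of 9 dissociation-response genes tested in EC4, *Jund* (1.16), *Ier3* (2.32) and *Klf2* (0.93) were higher and *Nr4a1* (-4.12) lower, where 21.1% of all genes were called. Their part in the *Ahr* value was not tested. In Th1 thyrocytes the change of *Ahr* was -0.38 (SE 0.24, adjusted p = 0.258). EC2, where *Ahr* did not pass the filter, had 102 UMIs of it over all pools. There the aN1aN2 pools were also the lowest, at 19.5 to 53.7 unadjusted CPM (n = 3). RW had 71.2 and 77.1 and aJ1aJ2 65.8 and 72.3 (n = 2 each).

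In EC3 *Ahr* went the other way without a call: 41.9, 42.4 and 61.4 CPM in RW, 85.1 and 57.4 in aJ1aJ2 3 and 4 (aJ1aJ2 1, with 17 cells, was left out), and 120, 95.9 and 48.9 in aN1aN2. Pool aN1aN2 3 lay inside the RW range. The change against RW was 0.86 (SE 0.35, edgeR adjusted p = 0.179). It differed from the change in EC1 by 1.97 (SE 0.40, adjusted p = 0.00681, 8 pools), a comparison added after seeing the data. Without aN1aN2 1 that difference had an adjusted p of 0.0692, and without aN1aN2 2 one of 0.0889. The EC3 label also changed in make-up, as the 7 mural markers, all with UMIs in every group, summed to 2788 to 4496 CPM among RW pools but 774 to 1012 among aN1aN2 pools. The 8 endothelial markers summed to 4883 to 6204 and 7176 to 8390 CPM, and the 5 lymphatic ones to 2133 to 4215 and 1182 to 2607. Their part in the *Ahr* values was not tested.

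*Cyp1a1*, the enzyme induced by the receptor, was 364, 85.4 and 48.6 CPM in EC1 of the RW pools, 47.3, 37.0 and 117 in aJ1aJ2 and 4.57, 0 and 3.18 in aN1aN2. Every aN1aN2 pool was far below every other pool, on 3 UMIs in 264 cells against 765 in 661 RW cells. As summed counts the ratio of RW to aN1aN2 was 56.1 (95% counting interval 19.1 to 273), and 22.8 (7.71 to 112) without RW 1. The fitted change against RW was -5.88 (SE 1.19, edgeR adjusted p = 0.0011). Without RW 1 it was -4.55 (SE 0.80, adjusted p = 0.000273), and without aN1aN2 1 it was -6.72 (SE 1.69, adjusted p = 0.0112). Against aJ1aJ2 it was -4.65 (SE 1.38, adjusted p = 0.0285), a call lost without aJ1aJ2 4 (0.0942) or without aN1aN2 1, 2 or 3 (0.105, 0.118 and 0.0955), and with EC1 to EC4 summed (0.0862). After thinning to 2000 UMIs, 6.39% to 29.7% of RW cells, 4.55% to 10.2% of aJ1aJ2 cells and 0% to 1.70% of aN1aN2 cells kept a *Cyp1a1* UMI. In EC4, where the gene did not pass the filter, 32 UMIs in RW, 21 in aJ1aJ2 and 7 in aN1aN2 gave 91.9, 47.0 and 14.8 unadjusted CPM, and RW without RW 1 had 33.5. The pools overlapped, as aN1aN2 3 had 41.4 CPM (5 UMIs, 4 of them in 1 cell), above RW 2 and RW 3.

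**Figure D3:**
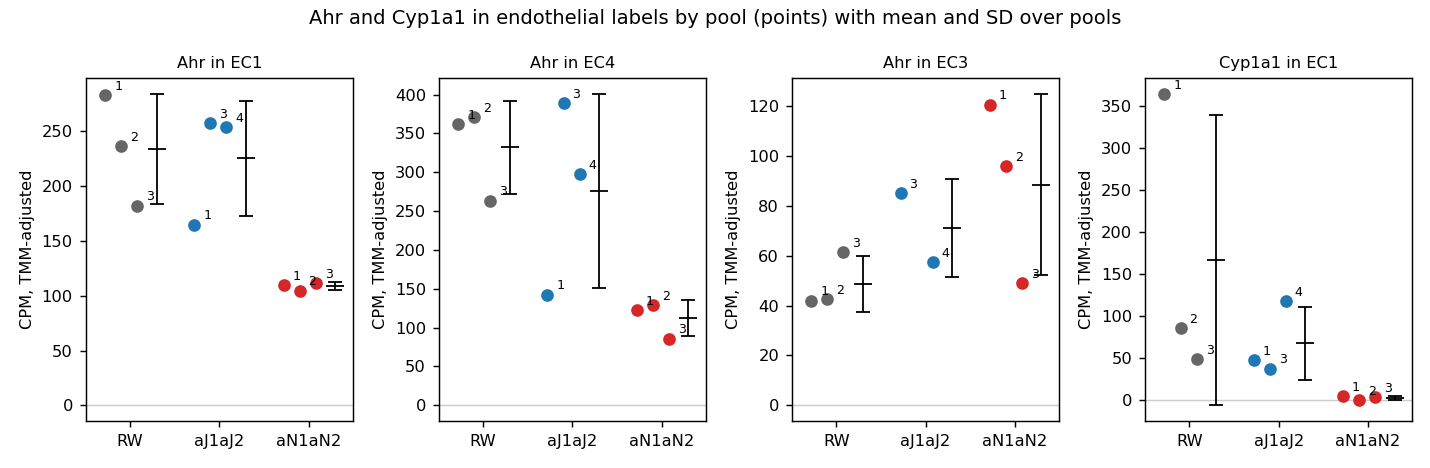
TMM-adjusted CPM of *Ahr* in EC1, EC4 and EC3 and of *Cyp1a1* in EC1, with 1 point per pool (its number beside it) and a bar for the mean ± SD of the pools. In EC1 the aN1aN2 pools lie at 105 to 111 for *Ahr* and at 0 to 4.57 for *Cyp1a1*, below all RW and aJ1aJ2 pools, and RW 1 stands at 364 for *Cyp1a1*.

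Other values moved with these EC1 changes, and their part in them was not tested. Cells were shallower, with medians of 4813 UMIs in RW, 3558 in aJ1aJ2 and 2752 in aN1aN2. Their median mitochondrial share was 4.77% to 6.31% in RW pools and 3.75% to 4.41% in aN1aN2 pools. Of the other cells' markers, the 8 thyrocyte markers ranged from 704 to 979 CPM among RW pools and from 1324 to 1953 among aN1aN2 pools, where *Slc5a5* was at 0. The 4 parathyroid markers, of which *Gcm2* and *Casr* were at 0 throughout, ranged from 47.1 to 92.3 and from 228 to 334 CPM. The 7 macrophage markers summed to 83.0 to 219 and 0 to 9.49 CPM, with *Csf1r*, *Adgre1*, *Cd68* and *Mrc1* at 0 in aN1aN2. The 8 endothelial markers themselves ranged from 14976 to 16519 and from 11413 to 11872 CPM. The 5 erythroid markers overlapped, at 3937 to 21291 and 2360 to 7861 CPM.

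*Cyp1b1* in fibroblasts stood at 177, 141 and 143 CPM in RW, 132, 180 and 179 in aJ1aJ2 and 435, 537 and 461 in aN1aN2. The aN1aN2 pools were about 3 times the others with no overlap. The change was 1.64 (SE 0.20, edgeR adjusted p = 1.2e-05) against RW and 1.53 (0.19, adjusted p = 1.8e-05) against aJ1aJ2. The share of F cells with a UMI after thinning to 2000 was 20.2% to 33.1% in RW, 18.8% to 26.7% in aJ1aJ2 and 44.6% to 55.2% in aN1aN2, with 24, 49 and 39 shallower cells left out. Fibroblast markers, all 7 with UMIs, ranged from 70911 to 78311 CPM among RW pools and from 66146 to 94509 among aN1aN2 pools. The 5 erythroid markers ranged from 109 to 296, with *Alas2* at 0, and from 851 to 43673, and the median depth of F cells was 7664.5 and 3153 UMIs. Their part in the *Cyp1b1* values was not tested. The other F pairs were not called: *Tiparp* at 0.97 (SE 0.40, adjusted p = 0.101; called without RW 1, 0.0466, or without aN1aN2 2, 0.0358) and *Arnt* at 0.65 (SE 0.33, adjusted p = 0.193).

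Thyrocytes gave 2 further calls. *Arnt* in Th1 was 23.3, 20.9 and 17.2 CPM in RW, 16.1, 24.9 and 29.2 in aJ1aJ2 and 33.5, 36.4 and 35.1 in aN1aN2, which lay above all others. The change against RW was 0.78 (SE 0.20, edgeR adjusted p = 0.00774), and against aJ1aJ2 0.57 (SE 0.21, adjusted p = 0.0606). *Tiparp* in Th1 was 18.2, 13.5 and 10.3 CPM in RW, 13.4, 11.6 and 12.8 in aJ1aJ2 and 21.4, 21.2 and 24.2 in aN1aN2. Its change was 0.65 (SE 0.23, adjusted p = 0.0423) against RW and 0.82 (SE 0.24, adjusted p = 0.026) against aJ1aJ2. The first call held in 3 of 12 alternatives and was lost without RW 2 (0.0774), RW 3 (0.189) or any aN1aN2 pool (0.0830 to 0.0985), under DESeq2 (0.121), with no filter (0.0671), and in the 4 pools numbered 1 and 2 with the replicate number as a block (0.274) or without (0.299). The second held in 5 of 10 and was lost without aJ1aJ2 3 (0.0936) or any aN1aN2 pool (0.0599 to 0.0716) and under DESeq2 (0.0688).

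*Nqo1* did not pass the threshold in EC3 or Th1, the labels where it could be tested. In Th1 it was 13.1, 6.75 and 8.78 CPM in RW, 8.60, 6.28 and 5.84 in aJ1aJ2 and 4.39, 4.85 and 8.46 in aN1aN2, and the groups overlapped. The change against RW was -0.88 (SE 0.36, edgeR adjusted p = 0.0715), and without aN1aN2 3 it was -1.11 (adjusted p = 0.0488). It was also called in the 4 RW and aN1aN2 pools numbered 1 and 2, with the replicate number as a block (-1.15, adjusted p = 0.0322) and without (-1.26, 0.0316). In EC1 it had 35 UMIs in RW, 20 in aJ1aJ2 and 0 in 264 aN1aN2 cells, or 6.82, 5.41 and 0 unadjusted CPM. Th1 cells were also shallower under aN1aN2, with a median of 6499.5 against 17624 UMIs in RW, and their 8 thyrocyte markers ranged from 98060 to 113648 against 90232 to 97486 CPM. The part of these in the Th1 values was not tested.

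**Figure D4:**
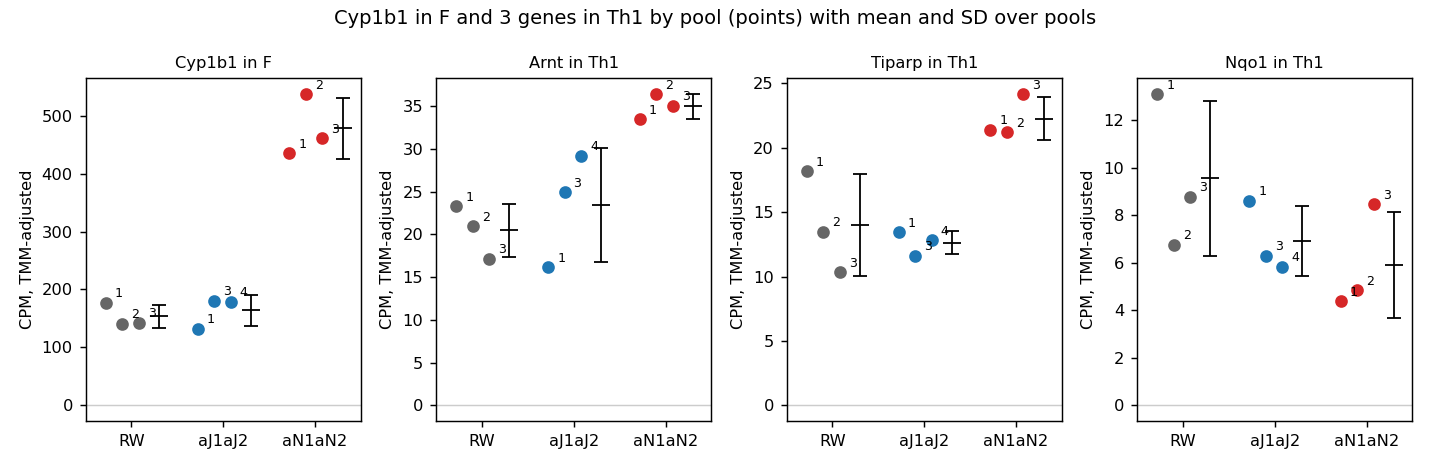
TMM-adjusted CPM of *Cyp1b1* in F and of *Arnt*, *Tiparp* and *Nqo1* in Th1, with 1 point per pool and a bar for the mean ± SD of the pools. The aN1aN2 pools lie above all others for *Cyp1b1* (435 to 537), *Arnt* (33.5 to 36.4) and *Tiparp* (21.2 to 24.2), and overlap them for *Nqo1*.

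Blocking the ligands gave no call. Against RW, 0 of the 16 tested pairs (of 72 possible, in 12 labels) were called by edgeR or DESeq2, with 2 at an unadjusted p under 0.05, *Cyp1a1* and *Arnt* in EC1. Over all genes 1.43% were called in EC1, 0.0618% in EC3, 0.903% in EC4, 0.579% in F and 0.612% in Th1. *Cyp1a1* in EC1 changed by -1.23 (SE 0.50, adjusted p = 0.280), and this value rested on RW 1: without it the change was 0.10 (SE 0.33, adjusted p = 0.957). Without RW 3 it was -1.69 (SE 0.41) with an adjusted p of 0.0239, and with no filter on low counts it was -1.24 (SE 0.16, adjusted p = 1.23e-11). Within title number ranges, RW 3 (48.6 CPM) stood beside aJ1aJ2 1 (47.3), and RW 1 and RW 2 (364 and 85.4) beside aJ1aJ2 3 and 4 (37.0 and 117). With the range as a covariate the change was -1.29 (SE 0.48, adjusted p = 0.239). In EC2, where *Cyp1a1* did not pass the filter, RW 1 and RW 2 had 38.0 and 77.1 unadjusted CPM. The 2 aJ1aJ2 pools had 5.72 and 10.0. In EC3, where it did not pass either, RW pools had 0 to 13.7 and aJ1aJ2 pools 3.53 to 13.8.

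*Arnt* in EC1 was 22.6, 28.5 and 29.1 CPM in RW and 29.3, 37.7 and 38.4 in aJ1aJ2, a change of 0.43 (SE 0.20, edgeR adjusted p = 0.373). In aN1aN2 it was similar to aJ1aJ2, at 29.7, 42.9 and 38.2, a change of 0.44 against RW (adjusted p = 0.271). With EC1 to EC4 summed, *Arnt* in aN1aN2 against RW changed by 0.66 and was called (adjusted p = 0.0161). Under aJ1aJ2, *Ahr* in EC1 changed by -0.02 (SE 0.16) and *Cyp1b1* in F by 0.11 (SE 0.20). Between the 2 blockades, 5 of 16 pairs were called in aN1aN2 against aJ1aJ2, 2 higher and 3 lower, where 13.5% of all genes were called in EC1, 1.27% in EC3, 17.2% in EC4, 16% in F and 22.3% in Th1. They were *Ahr* in EC1 and EC4, *Cyp1a1* in EC1, *Cyp1b1* in F and *Tiparp* in Th1, and 3 pairs were called without aN1aN2 1 or without aN1aN2 3. The 3 comparisons share pools and are not independent of each other.

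**Figure D5:**
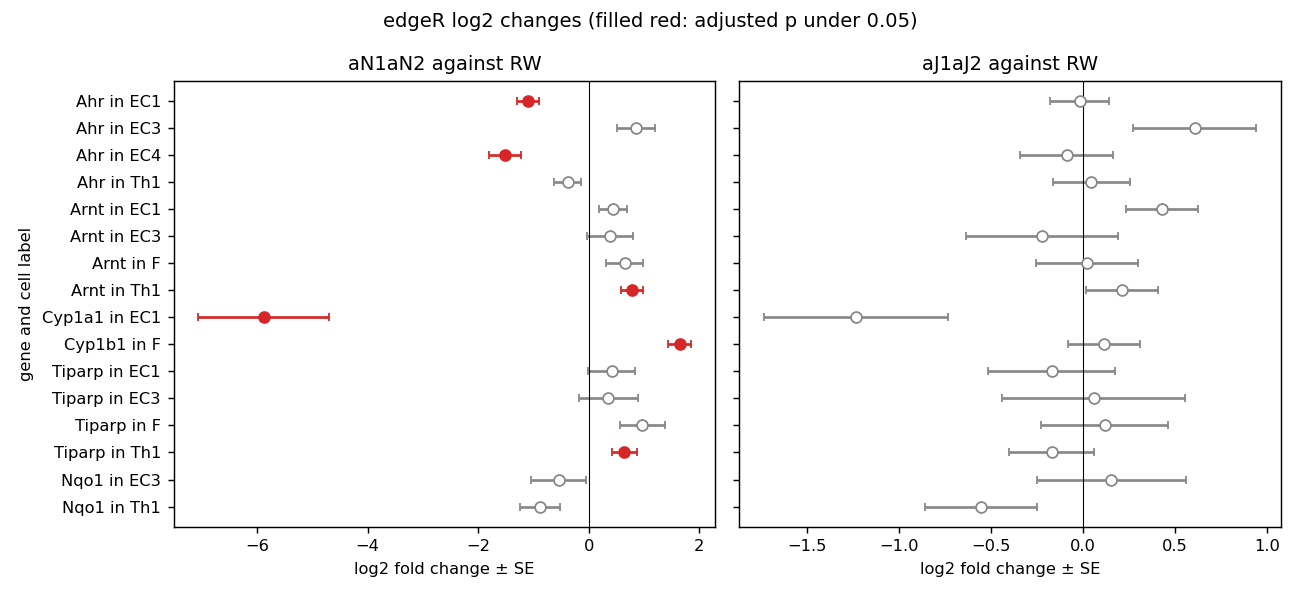
Log2 change ± SE (x axis, different ranges) of every member and label pair that passed the filter, aN1aN2 against RW on the left and aJ1aJ2 against RW on the right. Filled red points have an edgeR adjusted p under 0.05: 6 on the left, from -5.88 for *Cyp1a1* in EC1 to 1.64 for *Cyp1b1* in F, and none on the right.

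Few other receptor targets could be tested beside *Cyp1a1*. Of 16 further receptor targets, 2 passed the filter in EC1, and 1 of them, *Selenbp1*, was higher in aN1aN2 than in RW by 1.32 (SE 0.37, edgeR adjusted p = 0.0165). The targets *Cyp1a2* and *Ugt1a6b* had no UMI in any cell, *Ahrr*, which encodes the receptor's repressor, had 9 and *Aldh3a1* 11. Among the receptor's chaperones and related factors, 9 of 11 passed in EC1 and 4 were called, where 17.8% of all genes were: *Epas1* (0.48) and *Ncoa2* (0.93) were higher, and the heat shock protein 90 genes *Hsp90aa1* (-0.64) and *Hsp90ab1* (-0.52) lower. The list's median was 0.13 beside -0.01 over all genes tested. In Th1, where 34.4% of all genes were called, 4 of 9 of these were called and 2 of 4 targets. *Ncoa2* (0.46) was higher and *Hif1a* (-1.16) and *Hsp90aa1* (-0.89) lower, and of the targets *Selenbp1* (2.41) was higher and *Scin* (-0.70) lower. In F, where 19.8% of all genes were called, *Nrip1* (0.77) was higher and *Hsp90ab1* (-0.73) lower, of 7 tested, and none of 4 targets was called.

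NRF2 targets, as *Nqo1* is, were counted as a list of 14. In Th1 13 passed and 10 were called in aN1aN2 against RW, 9 lower and 1 higher, where 34.4% of all genes were called, with a median of -0.61 beside 0.02 over all genes. The heme oxygenase *Hmox1* fell by 1.54 (SE 0.27) and *Srxn1* by 1.37 (SE 0.32), while *Gstm1* rose by 1.36 (SE 0.10). *Taldo1*, *Prdx1*, *G6pdx*, *Pgd*, *Txnrd1*, *Me1* and *Gclm* fell by 0.45 to 0.98. In EC1, where 17.8% of all genes were called, 3 of 13 were lower (*Gstm1* -0.85, *Taldo1* -0.49, *Prdx1* -0.40), with a median of -0.03 beside -0.01. In F *Hmox1* (2.02) and *Gclc* (1.54) were higher and *Taldo1* (-1.28) lower, of 10 that passed where 19.8% of all genes were called, with a median of 0.26 beside 0.01. Of 10 other genes of the PARP family, to which *Tiparp* belongs, *Parp8* (0.64) and *Zc3hav1* (0.41) were higher in Th1. None of the 9 tested in EC1 was called, where their median was -0.38 beside -0.01. Genes of the tryptophan route to receptor ligands were sparse, with 1 of 10 passing in EC1 and 2 in Th1, and none called. Against RW, aJ1aJ2 gave 1 call in these 5 lists over EC1, F and Th1, where 1.43%, 0.579% and 0.612% of all genes were called. It was *Selenbp1* in Th1 (0.71, SE 0.13, edgeR adjusted p = 0.0246), of 4 further receptor targets that passed there.

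Dissociation-response genes were also called in these cells, and their part in the members' values was not tested. In EC1 of aN1aN2, *Nr4a1* (-4.11), *Hspa1a* (-2.84) and *Hspa1b* (-1.92) were lower and *Ier3* (0.90), *Jund* (0.85) and *Klf2* (0.68) higher than in RW, of 14 that passed where 17.8% of all genes were called. In EC1 of aJ1aJ2, 5 of the 14 were lower where 1.43% of all genes were called, among them *Hspa1a* (-2.59), *Hspa1b* (-2.25) and *Nr4a1* (-1.74). In F of aN1aN2, 5 of 12 were higher where 19.8% of all genes were called, among them *Fos* (3.50), *Nr4a1* (2.25) and *Junb* (1.65). Summed over the list, F pools ranged from 1844 to 2466 CPM under RW and from 2569 to 2655 under aN1aN2. In Th1 of aN1aN2 *Zfp36* (1.63) and *Hspa1a* (0.58) were higher and *Jun* (-0.91) lower, of 13 tested where 34.4% of all genes were called. In F of aJ1aJ2 only *Junb* (1.44) was called, higher, of 12 tested where 0.579% of all genes were called.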

How the data were processed

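Per the labels' protocols, thyroids were digested with Liberase and libraries made with a 10x Genomics 3' kit; the submitters' processing notes name Cell Ranger and GRCm38, and versions are not given in the sources used here. The authors deposited raw UMI counts per gene and cell, from 500 to 131347 UMIs a cell, and their own cell labels, a table of names. In 2619 annotation lines an unquoted comma shifted the columns, which was corrected, and 52403 gene identifiers had a symbol. No doublet caller was run. UMIs were summed per pool and label, and pools with under 20 cells of a label were left out. edgeR 4.0.16 in R 4.3.3 was fitted per label to all pools (filterByExpr, TMM, two-sided quasi-likelihood test), and the procedure was tested on simulated data. For EC1, aN1aN2 against RW, it recovered 45 of 100 genes changed 2-fold and 85 of 100 changed 4-fold, with 9 false among 139 calls. A pair without a call may thus still have changed. Alternatives included DESeq2 1.42.0. Nothing says that pools of a group were processed independently, so p-values measure the spread between pools, which may be technical. Count and share intervals (95%, exact) and the floor of 3 counts cover counting error only. Members and gene lists were chosen with earlier results of these data known. All 6 members were named. List genes were named when called in the label holding most of their UMIs, and in EC1, F, M and Th1 the 3 with the largest change per list and contrast. Of the list genes this rule names, 1 is not reported here.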

Additional observations from a re-analysis of the deposited data

Results flagged for a closer look

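The change of *Ahr* under aN1aN2 against RW differed between EC3 and EC1 by 1.97 (log2, SE 0.40, edgeR adjusted p = 0.00681 over 7975 genes, of which 191 were called), by a label-by-group term with pools as blocks. It was 1 of 27 member, label and contrast combinations compared with EC1, and the only one called. Leaving out 1 RW or aN1aN2 pool at a time gave 1.73 to 2.30, with adjusted p from 0.00068 to 0.0889. In EC3 the aN1aN2 pools held 14, 15 and 7 *Ahr* UMIs.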

How the results depend on the processing

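Of 11 called pairs of a member and a label, 8 were called under every alternative run, the exceptions being *Cyp1a1* in EC1 and *Tiparp* in Th1 against aJ1aJ2 and *Tiparp* in Th1 against RW. Of 37 uncalled pairs, 9 were called under some alternative. Among them were *Arnt* in EC1 and in EC3, aN1aN2 against RW, both through the sum of EC1 to EC4 (0.66, edgeR adjusted p = 0.0161). The 6 calls of aN1aN2 against RW ranged from 5 to 9. For aJ1aJ2 against RW, no filter on low counts gave 2 calls, both *Cyp1a1*, in EC1 and EC2 (main 0), and leaving out 1 pool gave 0 to 1. For aN1aN2 against aJ1aJ2, summing EC1 to EC4 gave 3 (main 5), as *Ahr* in EC1 and EC4 became 1 pair and the call of *Cyp1a1* was lost (-3.06, edgeR adjusted p = 0.0862), and leaving out 1 pool gave 3 to 6.

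Direction changed without a call except where the summed label is named. With EC1 to EC4 summed, *Ahr* set against its EC3 value was -0.0512 (aJ1aJ2 against RW), -0.944 (aN1aN2 against RW) and -0.893 (aN1aN2 against aJ1aJ2), the latter pair called. Under aJ1aJ2 against RW the sum gave -0.102 for *Nqo1*, -0.0965 for *Tiparp* and 0.204 for *Arnt*, and the number range as covariate gave -0.0293 for *Nqo1* in EC3. Without a filter *Arnt* in EC1 was -0.052 for aN1aN2 against aJ1aJ2. The cause was not tested. Leaving out 1 pool at a time, aJ1aJ2 against RW ranged from -0.168 to 0.145 for *Ahr* in EC1, -0.367 to 0.0591 in EC4 and -0.122 to 0.144 in Th1. *Tiparp* ranged from -0.524 to 0.0594 in EC1, -1.17 to 0.565 in EC3, -0.115 to 0.473 in F and -0.409 to 0.120 in Th1. *Cyp1a1* in EC1 ranged from -2.0003 to 0.0997, called without RW 3, *Nqo1* in EC3 from -0.0477 to 0.300, and *Arnt* from -0.439 to 0.0478 in EC3 and -0.0721 to 0.116 in F. For aN1aN2 against aJ1aJ2, *Arnt* in EC1 ranged from -0.116 to 0.167, *Ahr* in EC3 from -0.00685 to 0.591 and *Tiparp* in EC3 from -0.216 to 1.53.

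Pools of RW and aN1aN2 numbered 1 and 2 allowed a replicate block, which gave 6 calls, as did the same 4 pools without it, but with *Tiparp* in Th1 lost (0.38, edgeR adjusted p = 0.274, and 0.34, 0.299) and *Nqo1* in Th1 gained (-1.15, 0.0322, and -1.26, 0.0316). Over genes, the difference between pools 1 and 2 of RW did not correlate with that of aN1aN2 (r = 0.0126 in EC1 and -0.0399 in Th1). With 1 such difference per group, this cannot show whether same-numbered pools were handled together. Low UMI counts limit *Nqo1* in EC1, *Cyp1a1* outside EC1 and all members in EC3, and shares of cells with a UMI changed when cells were thinned to 1 depth.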
